A study of Homo sapiens with 9 samples.

Results

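The 35 genes described here encode enzymes that build cholesterol and fatty acids. They were chosen with earlier results of these data known. By symbol, 1 row each, they were taken from the deposited table and make up 35 of its 60605 genes. They fall into 8 enzymes that lead from acetyl-CoA to squalene (the mevalonate steps), 10 that lead from squalene to cholesterol (the late sterol steps) and 17 fatty acid enzymes, of which 5 supply precursors or synthesise palmitate, 4 elongate, 4 desaturate and 4 activate fatty acids for further use. The genes were measured by RNA-seq of poly(A)+ RNA in TE13, an established human esophageal squamous cell carcinoma (ESCC) line. The cells had been transfected with control siRNA or with either of the siRNAs against the lncRNA PARylator (LINC00885), named siRNA.1 and siRNA.2, and each condition had 3 libraries, 9 in all. The design text of the series calls the libraries biological replicates, all of a single cell line, and nothing used here says how the cultures were separated, so the p-values measure the spread between these libraries, which may be partly technical.

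Cholesterol is made from acetyl-CoA by way of mevalonate, isoprenoid pyrophosphates and squalene, and the late steps close the ring system of squalene and trim lanosterol to cholesterol. Fatty acids start from the same acetyl-CoA, which acetyl-CoA carboxylase and fatty acid synthase turn into palmitate, and elongases and desaturases then give longer and unsaturated chains. Many genes of both branches are known targets of the SREBP transcription factors, which are held in the endoplasmic reticulum when sterols are plentiful. Proliferating carcinoma cells use the products for membranes.

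The libraries held between 15337917 and 22559998 counts on genes. The targeted gene LINC00885 was near the limit of detection, with 6, 7 and 12 counts in the control libraries, 4, 5 and 2 with siRNA.1 and 2, 0 and 4 with siRNA.2. The siRNA.1 log2 fold change of -1.21 ± 0.945 (SE) and the siRNA.2 one of -2.33 ± 1.01 did not pass (edgeR quasi-likelihood test, adjusted p = 0.376 and 0.0659), so the knockdown could not be checked firmly from these counts at this depth. The paper reports the knockdown by qPCR in its ESCC cells. All 7 genes on a list of squamous and general epithelial markers passed the filter on low values. Their summed level was between 490.7 and 498.9 FPKM (counts scaled by exonic length and library total) with control siRNA. It was between 443.3 and 451.7 with siRNA.1 and between 437.0 and 452.2 with siRNA.2, so all siRNA libraries lay below all control libraries. KRT5 (142.5 FPKM with control siRNA), CDH1 (133.3) and EPCAM (99.0) had a large part in this sum, and CDH1 and EPCAM are not particular to squamous epithelium. Of the 4 adipocyte and 3 hepatocyte markers, cell types with high lipid synthesis, none passed, and ADIPOQ, LEP, CIDEC and CYP7A1 were listed at 0 in each library. Of the 7 squamous markers 3 fell and 3 rose with each siRNA. Among them KRT5 fell (log2 fold changes -1.86 and -1.36) and KRT6A rose (0.34 and 0.58). Of the 5 fibroblast markers 2 passed the filter, 1 of them fell with each siRNA, and the list summed to between 2.22 and 2.41 FPKM with control siRNA and between 1.44 and 1.68 with the siRNAs. Of the 4 blood markers 2 passed the filter, 1 of them rose with each siRNA, and the list summed to between 0.08 and 0.19 FPKM with control siRNA and between 0.37 and 0.56 with the siRNAs, with MS4A1 listed at 0 throughout. The part of these markers in the results was not tested.

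All 35 enzyme genes passed the filter of a mean of at least 0.1 FPKM, and most were lower after transfection of either PARylator siRNA. With siRNA.1, 23 of the 35 fell and 3 rose, and with siRNA.2, 22 fell and 2 rose (adjusted p under 0.05). Over all 21395 genes tested, 15.2% fell and 15.0% rose with siRNA.1, and 15.1% fell and 15.8% rose with siRNA.2. That background takes every gene above the filter, also those of few counts, and was not matched to the levels of the 35 genes. The enzyme genes had a median log2 fold change of -0.43 (siRNA.1) and -0.40 (siRNA.2), whereas that of all genes tested was -0.0006 and 0.004. Of the 35 genes, 21 fell with both siRNAs and 1 rose with both, against 10.2% and 11.1% of all genes. These comparisons share the 3 control libraries and are therefore not independent of each other. In bulk RNA, fewer cells of a kind and less RNA per cell cannot be told apart.

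Most sterol enzymes fell, while of the fatty acid enzymes a smaller part did. Of the mevalonate steps, 7 of 8 fell with each siRNA, with a median log2 fold change of -0.65 with siRNA.1 and -0.59 with siRNA.2. Of the late sterol steps, 9 of 10 fell with siRNA.1 and 7 of 10 with siRNA.2, with medians of -0.57 and -0.42. No sterol enzyme rose. Of the 17 fatty acid enzymes there were 7 lower, 3 higher and 7 that did not pass with siRNA.1, and 8 lower, 2 higher and 7 that did not pass with siRNA.2. The shares over all genes tested were 15.2% lower and 15.0% higher with siRNA.1, and 15.1% and 15.8% with siRNA.2. The number of fatty acid enzymes that rose is near that background with each siRNA. The medians of the fatty acid enzymes were -0.04 and -0.16. Their log2 fold changes ran from -1.11 to 0.39 with siRNA.1 and from -1.13 to 0.42 with siRNA.2. With single libraries left out the fatty acid median ran from -0.14 (without the third siRNA.1 library) to -0.0226 (without the second control library) with siRNA.1. With siRNA.2 it ran from -0.18 to -0.0704 (without the third control library), and was -0.0884 without the second siRNA.2 library. The difference between the 3 groups was not tested.

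**Figure D1:**
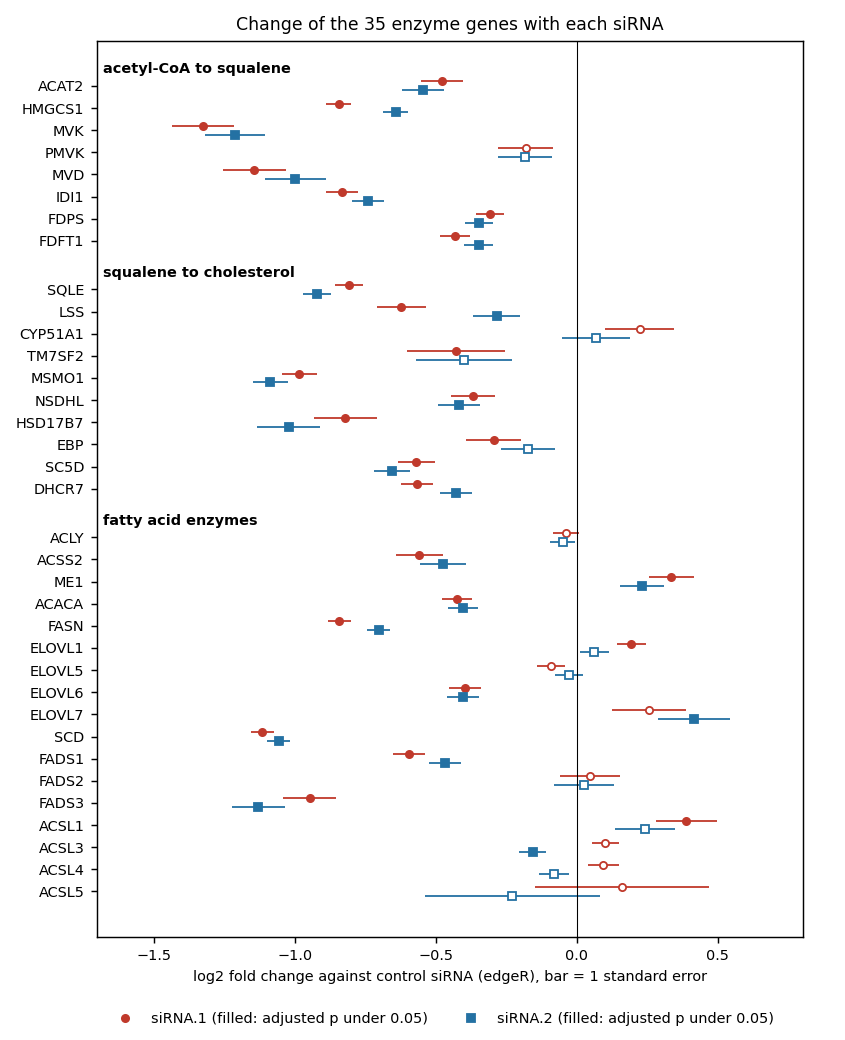
Log2 fold change of each of the 35 genes against control siRNA, with siRNA.1 (circles) and siRNA.2 (squares), from edgeR on 3 libraries per condition. Bars are 1 standard error and filled symbols have an adjusted p under 0.05. The sterol enzymes lie to the left of 0 except CYP51A1, while the fatty acid enzymes spread from SCD and FADS3 near -1 to ACSL1 and ELOVL7 near 0.4.

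By library, all 3 siRNA.1 libraries lay below all 3 control libraries for 24 of the 35 genes, against 17.0% of all genes tested, and all 3 siRNA.2 libraries did so for 24, against 18.5%. Summed over the mevalonate steps, the level was 216.6 ± 6.49 FPKM (SD, n = 3) in the control libraries, 151.0 ± 4.58 with siRNA.1 and 155.0 ± 4.90 with siRNA.2. For the late sterol steps the sums were 176.8 ± 5.64, 115.0 ± 1.07 and 111.4 ± 0.937 FPKM. The fatty acid enzymes summed to 429.1 ± 19.2, 331.4 ± 6.45 and 325.6 ± 1.63 FPKM, a sum in which SCD had the largest share. In each of these sums the libraries of either siRNA lay below those of the control.

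Other features moved with the conditions. The share of counts on mitochondrial genes was 7.46% to 7.66% in control libraries, 4.99% to 5.06% in siRNA.1 libraries and 5.54% to 5.56% in siRNA.2 libraries. The summed level of 10 interferon response genes was between 269.6 and 297.7 FPKM in the control libraries, between 1625 and 1711 with siRNA.1 and between 1413 and 1429 with siRNA.2, and 9 of the 10 rose with each siRNA. The part of either in the lower level of the enzyme genes was not tested.

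With control siRNA, the most abundant of the 35 mRNAs were SCD (134.0 ± 11.5 FPKM), FASN (58.9 ± 0.951), HMGCS1 (55.3 ± 0.144), SQLE (54.0 ± 1.30) and ELOVL1 (52.8 ± 2.15), each over n = 3. FASN was above the next gene in each library, whereas the libraries of HMGCS1, SQLE and ELOVL1 overlapped, so their order is not separated from the spread. At the other end stood FADS2 at 1.79 ± 0.224 FPKM and ACSL5 at 0.510 ± 0.165 FPKM. The median over the 35 genes was 13.1 FPKM.

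Along the mevalonate steps, MVK had the lowest log2 fold change of the 35 genes in edgeR with each siRNA, though with limma on log2(FPKM + 1), which understates changes of low genes, it was at -0.97 and -0.90 and SCD at -1.07 and -1.03. MVK (ENSG00000110921, chr12:109573255-109598125) encodes mevalonate kinase, which phosphorylates mevalonate. It stood at 4.15, 4.94 and 5.18 FPKM in the control libraries, at 2.03, 1.79 and 1.98 with siRNA.1 and at 2.41, 2.03 and 1.80 with siRNA.2. The siRNA libraries lay well below the control libraries and overlapped each other. The log2 fold change was -1.33 ± 0.110 (SE, adjusted p = 9.05e-32) with siRNA.1 and -1.21 ± 0.106 (adjusted p = 3.46e-28) with siRNA.2. MVD (ENSG00000167508, chr16:88651935-88663161), the decarboxylase that yields isopentenyl pyrophosphate, was at 6.22, 6.20 and 5.50 FPKM with control siRNA, 2.76, 2.76 and 2.74 with siRNA.1 and 3.31, 2.74 and 2.99 with siRNA.2. No siRNA library reached the lowest control library, and the log2 fold changes were -1.14 ± 0.111 (adjusted p = 2.62e-23) and -0.997 ± 0.107 (adjusted p = 5e-19).

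HMGCS1 and IDI1 had smaller fold changes from higher levels. HMGCS1 (ENSG00000112972, chr5:43287470-43313512), which makes HMG-CoA, was at 55.34, 55.34 and 55.09 FPKM in the control libraries, 30.53, 32.60 and 31.05 with siRNA.1 and 37.26, 35.98 and 33.85 with siRNA.2. The 3 conditions did not overlap, with siRNA.2 between control and siRNA.1, and the log2 fold changes were -0.84 ± 0.0443 (adjusted p = 1.69e-78) and -0.64 ± 0.0437 (adjusted p = 8.82e-47). IDI1 (ENSG00000067064, chr10:1039152-1049119), which isomerises isopentenyl pyrophosphate, was at 27.01, 30.28 and 29.66 FPKM with control siRNA, 17.52, 17.43 and 14.86 with siRNA.1 and 18.16, 17.44 and 16.86 with siRNA.2. Its control libraries lay above all others, and the siRNA libraries overlapped. The log2 fold changes were -0.83 ± 0.0580 (adjusted p = 1.51e-44) and -0.74 ± 0.0570 (adjusted p = 1.14e-36).

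Of the remaining mevalonate enzymes 3 fell with both siRNAs. ACAT2, the thiolase that joins acetyl-CoA units, had log2 fold changes of -0.48 (siRNA.1) and -0.54 (siRNA.2), FDFT1, squalene synthase, of -0.43 and -0.35, and FDPS, farnesyl pyrophosphate synthase, of -0.31 and -0.35. PMVK, which phosphorylates the product of MVK, had a log2 fold change of -0.18 with each siRNA and did not pass (adjusted p = 0.164 and 0.150), so that neighbouring steps of the pathway stood at -1.33 and -0.18 with siRNA.1. Part of the exons of ACAT2 (17.2% of bases), FDPS (18.6%), IDI1 (15.0%) and HMGCS1 (37.7%) is shared with a gene on the opposite strand in GENCODE release 44. As the strand setting of the counting is not given in the sources used here, reads of ACAT2 and of its partner TCP1, which had a mean of 6777 counts against 794.6, may not be fully separated.

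Among the late sterol steps, MSMO1 and HSD17B7 showed the largest falls. MSMO1 (ENSG00000052802, chr4:165327667-165343164), the C4-methylsterol oxidase, was at 40.87, 38.24 and 41.96 FPKM in the control libraries, 21.50, 20.80 and 20.12 with siRNA.1 and 19.80, 19.65 and 18.11 with siRNA.2. The conditions did not overlap, and the log2 fold changes were -0.98 ± 0.0612 (adjusted p = 6.05e-56) and -1.09 ± 0.0607 (adjusted p = 2.96e-69). HSD17B7 (ENSG00000132196, chr1:162790702-162812823), the ketosteroid reductase of the same C4-demethylation, was at 5.06, 5.58 and 5.01 FPKM with control siRNA, 3.26, 2.54 and 3.18 with siRNA.1 and 2.52, 2.46 and 2.77 with siRNA.2. The siRNA libraries overlapped each other and not the control, with log2 fold changes of -0.82 ± 0.112 (adjusted p = 4.48e-12) and -1.02 ± 0.111 (adjusted p = 1.78e-18). A close copy, HSD17B7P2, had a mean of 28.4 counts against 301.1 for HSD17B7, and how reads of both were assigned is not given in the sources used here. NSDHL, the decarboxylating dehydrogenase of this demethylation, fell with both siRNAs (log2 fold changes -0.37 and -0.42).

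SQLE (ENSG00000104549, chr8:124998497-125022283), squalene epoxidase, which catalyses the first oxygenation of the pathway, was the most abundant late sterol mRNA. It was at 53.07, 53.53 and 55.52 FPKM with control siRNA, 31.73, 30.28 and 32.44 with siRNA.1 and 28.75, 29.85 and 27.75 with siRNA.2. All siRNA.2 libraries lay below all siRNA.1 libraries and these below the control, with log2 fold changes of -0.81 ± 0.0491 (adjusted p = 2.30e-58) and -0.92 ± 0.0489 (adjusted p = 1.24e-76). LSS, the cyclase that forms lanosterol from the product of SQLE, was at 5.12, 5.45 and 6.04 FPKM with control siRNA, 3.80, 3.86 and 3.37 with siRNA.1 and 4.72, 4.72 and 4.34 with siRNA.2. The conditions did not overlap, and LSS fell by 0.62 on the log2 scale with siRNA.1 and by 0.28 with siRNA.2. The siRNA.2 call of LSS was lost without the third control library (log2 fold change -0.21, adjusted p = 0.0788). SC5D, which introduces the C5 double bond, fell with both siRNAs (-0.57 and -0.65), as did DHCR7, which reduces the C7 double bond (-0.57 and -0.43).

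The remaining late steps, CYP51A1, EBP and TM7SF2, did not pass with both siRNAs. CYP51A1 (ENSG00000001630, chr7:92112153-92134803), the lanosterol 14-alpha-demethylase, was the only sterol enzyme of the 18 with a positive fold change. It was at 2.86, 5.0 and 3.58 FPKM in the control libraries, 4.16, 4.70 and 4.74 with siRNA.1 and 3.84, 3.67 and 4.55 with siRNA.2. The libraries of the 3 conditions overlapped, and the log2 fold changes of 0.22 ± 0.121 and 0.07 ± 0.120 did not pass (adjusted p = 0.168 and 0.739). Without the second control library, the highest of the 3, the siRNA.1 value was 0.46 and passed (adjusted p = 0.00539). In GENCODE release 44, 68.2% of its exonic bases also belong to another gene on the same strand, which had 0 counts. The deposited exonic length of CYP51A1 is 3529 bases against 4171 in that release, so the share in the annotation counted is not known. The control libraries of CYP51A1 varied by 28.6% (SD over mean) against a median of 5.88% over the late sterol steps. How reads in shared exons were treated is not given in the sources used here, so the level of CYP51A1 is uncertain. The same holds for EBP, the sterol isomerase, with 36.4% of its exonic bases shared on the same strand. EBP fell by 0.30 with siRNA.1 (adjusted p = 0.0113), a call that was lost without the third control library (adjusted p = 0.0971) or the third siRNA.1 library (adjusted p = 0.0619), and was at -0.17 with siRNA.2 (adjusted p = 0.173). TM7SF2, a sterol C14 reductase with the lowest level of the late steps (2.28 ± 0.309 FPKM with control siRNA), was at -0.43 with siRNA.1 (adjusted p = 0.0459) and -0.40 with siRNA.2 (adjusted p = 0.0580). With DESeq2 its siRNA.1 value did not pass (adjusted p = 0.0749), nor did it without the first (adjusted p = 0.148) or the third control library (adjusted p = 0.174) or without any siRNA.1 library (adjusted p between 0.0678 and 0.115), while its siRNA.2 value passed without the second control library (adjusted p = 0.0256) or the second siRNA.2 library (adjusted p = 0.0476).

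The fatty acid enzymes are given by role. The supply and synthesis enzymes and the elongases held both falls and rises with each siRNA. The desaturases summed to 153.1 ± 12.4 FPKM (SD, n = 3) in the control libraries, 75.8 ± 4.09 (siRNA.1) and 77.8 ± 4.49 (siRNA.2), of which SCD alone made up 134.0, 63.1 and 64.95 FPKM, and 3 of the 4 passed with each siRNA. SCD (ENSG00000099194, chr10:100347233-100364826), stearoyl-CoA desaturase, which makes oleate, was at 123.19, 132.56 and 146.15 FPKM in the control libraries, 59.73, 68.29 and 61.32 with siRNA.1 and 69.15, 64.77 and 60.94 with siRNA.2. Each siRNA library was far below each control library, and the siRNA libraries overlapped. The log2 fold changes were -1.11 ± 0.0401 (adjusted p = 1.26e-166) and -1.06 ± 0.0399 (adjusted p = 1.30e-151), which as percent changes were -53.8 and -51.9.

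FADS1, FADS2 and FADS3 lie side by side on chromosome 11 and did not move together. FADS3 (ENSG00000221968, chr11:61873519-61892051), a desaturase family member that acts on sphingoid bases, was at 5.54, 6.44 and 6.37 FPKM with control siRNA, 3.49, 2.95 and 3.26 with siRNA.1 and 2.98, 2.61 and 2.87 with siRNA.2. The control libraries lay above all others, and the log2 fold changes were -0.95 ± 0.0950 (adjusted p = 1.02e-21) and -1.13 ± 0.0945 (adjusted p = 5.04e-31). FADS1, the delta-5 desaturase of polyunsaturated fatty acids, fell with both siRNAs (-0.60 and -0.47). FADS2, the delta-6 desaturase, was at 1.55, 1.99 and 1.84 FPKM with control siRNA, 1.99, 1.97 and 1.71 with siRNA.1 and 1.83, 1.87 and 1.83 with siRNA.2. Its 3 conditions overlapped, and its log2 fold changes of 0.05 and 0.03 did not pass (adjusted p = 0.811 and 0.901). FADS1 and FADS2 share 490 exonic bases on opposite strands.

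Of the 5 enzymes that supply precursors or synthesise palmitate, 3 fell with both siRNAs. FASN (ENSG00000169710, chr17:82078338-82098294), fatty acid synthase, was at 58.44, 58.21 and 59.96 FPKM in the control libraries, 32.46, 34.83 and 33.18 with siRNA.1 and 36.50, 35.81 and 37.06 with siRNA.2. The 3 conditions did not overlap, and the log2 fold changes were -0.84 ± 0.0409 (adjusted p = 2.01e-91) and -0.70 ± 0.0406 (adjusted p = 8.48e-65). ACACA, acetyl-CoA carboxylase, which provides malonyl-CoA and limits the rate of the pathway, fell with both siRNAs (-0.42 and -0.40), as did ACSS2, which makes acetyl-CoA from acetate (-0.56 and -0.47). ACLY, which makes it from citrate, was at -0.04 and -0.05 and did not pass (adjusted p = 0.584 and 0.442), at 49.05 ± 1.31 FPKM in the control libraries, 48.7 ± 1.89 (siRNA.1) and 47.7 ± 0.176 (siRNA.2).

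ME1 (ENSG00000065833, chr6:83210402-83431051), malic enzyme, which supplies NADPH, was the only one of the 35 genes that rose with both siRNAs. It was at 10.55, 10.22 and 11.23 FPKM with control siRNA, 13.75, 13.68 and 13.76 with siRNA.1 and 11.71, 13.66 and 12.48 with siRNA.2. The siRNA libraries lay above the control libraries, and the log2 fold changes were 0.34 ± 0.0783 (adjusted p = 0.000130) and 0.23 ± 0.0777 (adjusted p = 0.0126). The siRNA.2 call was lost without the second control library (adjusted p = 0.0746) and without the second siRNA.2 library (adjusted p = 0.170). Without the second control library 0 of the 35 genes rose with siRNA.2.

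The elongases had no common direction, and their summed level was 111.3 ± 3.86 FPKM in the control libraries, 115.4 ± 2.47 (siRNA.1) and 110.9 ± 3.10 (siRNA.2), with all siRNA.1 libraries above all siRNA.2 libraries and the control libraries overlapping both. ELOVL6, which extends palmitate to stearate, the substrate of SCD, fell with each siRNA (-0.40 and -0.40). ELOVL5, which extends polyunsaturated chains, was at -0.09 and -0.03 and did not pass (adjusted p = 0.159 and 0.740). ELOVL1, which makes very long saturated chains, was at 50.84, 52.40 and 55.09 FPKM with control siRNA, 61.96, 60.08 and 62.40 with siRNA.1 and 53.07, 55.60 and 57.89 with siRNA.2. It rose with siRNA.1, whose libraries lay above the rest (log2 fold change 0.19 ± 0.0511, adjusted p = 0.000938), and overlapped the control with siRNA.2 (0.06 ± 0.0509, adjusted p = 0.405). ELOVL7, of the same very-long-chain class, was at 2.85, 2.14 and 2.18 FPKM with control siRNA, 2.46, 3.56 and 2.73 with siRNA.1 and 3.22, 3.38 and 3.03 with siRNA.2. Only the siRNA.2 libraries lay above the control libraries, with a log2 fold change of 0.42 ± 0.128 (adjusted p = 0.00523) beside 0.26 ± 0.131 (adjusted p = 0.134) with siRNA.1. The siRNA.2 call of ELOVL7 was lost without the second (adjusted p = 0.0545) or the third control library (adjusted p = 0.0511) and with limma on log2(FPKM + 0.1) (adjusted p = 0.0762), and its siRNA.1 value passed without the first control library (adjusted p = 0.0283) or the first siRNA.1 library (adjusted p = 0.0425).

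The acyl-CoA synthetases, which activate fatty acids by joining them to coenzyme A, did not fall with siRNA.1. ACSL1 was at 2.72, 2.65 and 2.81 FPKM with control siRNA, 3.80, 3.55 and 3.55 with siRNA.1 and 3.10, 3.29 and 3.34 with siRNA.2. Both sets of siRNA libraries lay above the control libraries, and only the siRNA.1 value passed (log2 fold change 0.39 ± 0.108, adjusted p = 0.00171, against 0.24 ± 0.107, adjusted p = 0.0735). With limma on log2(FPKM + 0.1) the siRNA.2 value passed (adjusted p = 0.0304). ACSL3 was at 0.10 with siRNA.1 (adjusted p = 0.0967) and fell by 0.16 with siRNA.2 (adjusted p = 0.00418), a call that was lost without the third control library (adjusted p = 0.130) and with limma on log2(FPKM + 0.1) (adjusted p = 0.0786). Without that control library the siRNA.1 value of ACSL3 was 0.15 and passed (adjusted p = 0.0272). ACSL4 was at 0.09 and -0.08 and ACSL5 at 0.16 and -0.23, and none of these passed (adjusted p between 0.199 and 0.766). With limma on log2(FPKM + 0.1) the siRNA.1 value of ACSL4 was 0.12 and passed (adjusted p = 0.0316). With 37.7 counts on average, ACSL5 allowed only a wide interval, and 3.48% of its exonic bases are shared with ZDHHC6, which had 1255.

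Set directly against each other, the siRNAs differed for 5 of the 35 genes, with 2 lower and 3 higher with siRNA.2, against 6.06% and 6.10% of all genes tested. The median difference of the 35 genes was -0.0073 on the log2 scale. For siRNA.2 against siRNA.1, HMGCS1 was higher by 0.20 ± 0.0443 (adjusted p = 0.00015), LSS by 0.34 ± 0.0855 (adjusted p = 0.00145) and FASN by 0.14 ± 0.0409 (adjusted p = 0.00848). In these genes the siRNA.2 libraries lay between the control and the siRNA.1 libraries. ACSL3 was lower with siRNA.2, with a difference of -0.26 ± 0.0471 (adjusted p = 2.01e-06), and so was ACSL4, with -0.18 ± 0.0541 (adjusted p = 0.0135). ACSL3 was at 13.87, 14.19 and 14.93 FPKM with siRNA.1 and 12.39, 11.66 and 11.52 with siRNA.2, and ACSL4 at 11.93, 11.80 and 11.74 and at 10.26, 10.37 and 10.42. The siRNAs did not overlap for either gene, and for ACSL4 the control libraries lay between them, at 10.94, 10.65 and 11 FPKM.

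For the other 30 genes the difference did not pass. The 95% interval of the difference was from -0.02 to 0.14 for SCD, from -0.11 to 0.34 for MVK and from -0.99 to 0.21 for ACSL5, so a difference of the size seen in LSS was outside the interval of SCD and inside that of MVK. With limma on log2(FPKM + 0.1), LSS (adjusted p = 0.0575) and FASN (adjusted p = 0.0602) did not pass. The FASN difference was also lost without the first (adjusted p = 0.0548) or the third siRNA.1 library (adjusted p = 0.0530) or the third siRNA.2 library (adjusted p = 0.0918), and that of ACSL4 without the first siRNA.2 library (adjusted p = 0.0641). Without the second siRNA.1 library the differences of SQLE (-0.15, adjusted p = 0.0498) and ELOVL1 (-0.15, adjusted p = 0.0448) passed, and with DESeq2 that of ELOVL1 did (adjusted p = 0.0396).

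Genes next to these enzymes in the pathways were counted from lists that were likewise chosen with earlier results of these data known. Over all genes tested, 15.2% fell and 15.0% rose with siRNA.1, and 15.1% fell and 15.8% rose with siRNA.2. Of 21 further enzymes of sterol and fatty acid synthesis, 20 were tested, 9 fell and 4 rose with siRNA.1, and 6 fell and 4 rose with siRNA.2. ACACB, the mitochondrial acetyl-CoA carboxylase, fell with both siRNAs (log2 fold changes -0.93 and -0.74) from a level of 0.367 FPKM, as did SCD5, another stearoyl-CoA desaturase (-0.31 and -0.56). HSD17B12, the ketoacyl reductase of the elongation cycle, rose with both siRNAs, by 0.24 and 0.21 on that scale, and HACD3, a dehydratase of that cycle, by 0.12 and 0.21. Of the same cycle, the dehydratase HACD2 (-0.17 and -0.33) and the reductase TECR (-0.30 and -0.37) fell, so its genes had no common direction.

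Of 14 genes of SREBP control and sterol transport, 9 fell and 1 rose with siRNA.1, and 9 fell and 0 rose with siRNA.2, with medians of -0.24 and -0.23. The shares over all genes tested were 15.2% lower and 15.0% higher with siRNA.1, and 15.1% and 15.8% with siRNA.2. INSIG1, which retains SREBP in the endoplasmic reticulum, fell with both siRNAs (log2 fold changes -1.25 and -1.57), as did STARD4, a sterol carrier (-1.36 and -0.78). Of 8 genes that encode the sterol-sensing receptor LXR, its targets or enzymes of oxysterol synthesis, 4 fell and 1 rose with siRNA.1. With siRNA.2, 3 fell and 0 rose. The gene that rose with siRNA.1 was NR1H2, which encodes an LXR receptor (log2 fold change 0.30). Those that fell with both were MYLIP (-0.83 and -1.16), ABCG1 (-1.07 and -1.25) and ABCA1 (-0.43 and -0.39). ABCG1 fell from a level of only 0.463 FPKM with control siRNA.

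Of 14 genes of fatty acid oxidation, the opposing pathway, 8 fell and 2 rose with siRNA.1, and 6 fell and 2 rose with siRNA.2, with medians of -0.23 and -0.12. The shares over all genes tested were 15.2% lower and 15.0% higher with siRNA.1, and 15.1% and 15.8% with siRNA.2. The number that rose is near that background with each siRNA. CPT1A, which admits fatty acids to mitochondria, rose by 0.29 and 0.16 on the log2 scale, and ECI1, an enoyl-CoA isomerase, by 0.42 and 0.34. PPARA, a transcription factor of the pathway, fell (-0.47 and -0.47), as did HADHB, a subunit of the mitochondrial trifunctional protein (-0.43 and -0.32).

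The promoters of 31 of the 35 genes were found by symbol in RefSeq (GRCh38.p14), as the 250 bases before each start. Of the genes that fell with both siRNAs, those with the lowest mean log2 fold change are printed, 4 in all, to show the sequence before the genes that fell most. Each line gives the longest stretch of the window without exonic bases in GENCODE release 44, 5′ to 3′ on the strand of the gene. Capitals mark the motif CCAAT (the CCAAT box, bound by NF-Y) and the motif GGGCGG (the GC box, bound by SP1), on either strand, so that ATTGG and CCGCCC mark the same motifs read on the other strand. MVK lies on the plus strand at chr12:109573581-109573792, SCD on the plus strand at chr10:100346983-100347232, MVD on the minus strand at chr16:88663162-88663297 and FADS3 on the minus strand at chr11:61891546-61891795.
MVK: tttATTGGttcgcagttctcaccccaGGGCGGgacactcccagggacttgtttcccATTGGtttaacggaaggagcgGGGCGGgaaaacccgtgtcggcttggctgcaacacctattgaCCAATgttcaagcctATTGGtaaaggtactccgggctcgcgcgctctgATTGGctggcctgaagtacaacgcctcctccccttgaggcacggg
SCD: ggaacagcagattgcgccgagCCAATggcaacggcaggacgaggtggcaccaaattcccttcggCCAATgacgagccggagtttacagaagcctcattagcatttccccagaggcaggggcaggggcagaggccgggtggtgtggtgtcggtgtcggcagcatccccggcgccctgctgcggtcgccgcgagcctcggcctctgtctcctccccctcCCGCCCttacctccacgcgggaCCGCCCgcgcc
MVD: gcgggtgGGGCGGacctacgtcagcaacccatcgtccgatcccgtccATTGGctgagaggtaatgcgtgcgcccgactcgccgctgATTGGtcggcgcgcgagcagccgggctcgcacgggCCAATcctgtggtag
FADS3: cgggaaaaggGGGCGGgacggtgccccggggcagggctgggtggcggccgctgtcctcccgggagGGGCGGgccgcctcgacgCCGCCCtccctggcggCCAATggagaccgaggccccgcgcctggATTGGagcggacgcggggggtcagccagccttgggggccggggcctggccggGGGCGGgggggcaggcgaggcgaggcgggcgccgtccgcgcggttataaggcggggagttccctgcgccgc

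CCAAT occurred 5 times in the stretch of MVK, 2 times in that of SCD, 3 times in that of MVD and 2 times in that of FADS3, and GGGCGG 2, 2, 1 and 4 times. Over the 250-base windows, 15 of the 17 genes that fell with both siRNAs and had a promoter in the table held CCAAT (88.2%), as did 7 of the 14 other members and 40.5% of all genes tested with a promoter in the table. For GGGCGG the shares were 94.1%, 85.7% and 71.9%. Of the sterol enzymes 13 of 15 held CCAAT, and of the fatty acid enzymes 9 of 16. The sterol regulatory element TCACNCCAC occurred in 0 of the 17 and in 1 of the 14 (ACSL1), beside 1.17% of all genes tested, and the E-box CACGTG in 1 of each beside 10.9%. Genes with several windows in the table were counted as holding a motif if any of them did, the motifs do not overlap in their letters, and a match describes the sequence and not a bound site. Only exact matches within 250 bases were counted, so a motif not found does not show that a gene lacks such an element. ACAT2, FDFT1, FASN and SQLE, which fell with both siRNAs, had no promoter in the table.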

How the data were processed

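RNA-seq of TE13 cells comprised 9 libraries in 3 conditions, grouped by their labels. The authors captured poly(A)+ RNA, used STAR for alignment to the human genome and featureCounts for gene counts. The submitters' processing notes name GRCh38, while versions, annotation release and strand setting are not given in the sources used here. The authors deposited raw counts per gene, which were tested as they stand, and FPKM, which followed from the counts, the deposited exonic length and the library totals for 100% of values (tolerance 0.0051 + 0.001 times the value). FPKM therefore moves with the share of counts taken by other genes. Counts were tested with edgeR 4.0.16 in R 4.3.3 by the quasi-likelihood test with TMM factors, over the 21395 genes whose mean reached 0.1 FPKM. All 9 libraries entered the same fit, with condition as its only term, and p-values were adjusted over all genes tested (Benjamini-Hochberg, threshold 0.05). Standard errors were taken as |log2 fold change| over the root of F, and 95% intervals as the estimate ± 1.96 standard errors. Library totals ran from 15337917 to 22559998 counts, with a common biological variation of 0.0566.

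Each siRNA was compared with the control, and the siRNAs with each other. DESeq2 1.42.0, the tool named in the study's methods, limma 3.58.1 on log2(FPKM + 0.1) and log2(FPKM + 1), other scalings and filters, a replicate block, fits of 6 libraries and each library left out in turn served as alternatives. The tests were tried on simulated data with the same spread for every gene, a simplification, so that trial does not vouch for the calls given here. Libraries of a condition differed by more than sampling noise (chi-square over its degrees of freedom, 2.76 to 4.62). The members and lists were chosen with earlier results of these data known. All 35 members may be named. Values in every library are given for members that passed in the same direction with both siRNAs and moved by 0.8 or more (log2) in either, for members that differed between the siRNAs by at least 0.4, of which there were 0, and for members directed against their group, and also for LSS, ACSL3 and ACSL4, which were added after their values were seen. Of a related list, up to 4 genes are named by the largest change with both siRNAs, with those called with both against the majority. HACD2, TECR and NR1H2 were added after their values were seen. Exon overlaps and promoters come from GENCODE release 44 and RefSeq on GRCh38. Python 3.11.15 with pandas 2.3.3 and matplotlib 3.10.9 gave summaries and plots. Some genes that this rule names are not reported here.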

Additional observations from a re-analysis of the deposited data

Results flagged for a closer look

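For 5 of the 35 genes the change against control siRNA differed between the siRNAs by the direct test (edgeR, adjusted p under 0.05), 2 lower and 3 higher with siRNA.2, beside 6.06% lower and 6.10% higher of all 21395 genes tested, so the number of such genes among the 35 is near that background. On the log2 scale, siRNA.2 against siRNA.1, the difference was 0.20 for HMGCS1, 0.34 for LSS, 0.14 for FASN, -0.26 for ACSL3 and -0.18 for ACSL4. HMGCS1, LSS and FASN fell with each siRNA and fell by more with siRNA.1, whereas against the control ACSL3 was at 0.10 (siRNA.1) and -0.16 (siRNA.2), and ACSL4 at 0.09 and -0.08. Single groups of 3 libraries were not tested for outlying samples.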

How the results depend on the processing

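The numbers of lower members against control siRNA were within 1.5 times the reported ones under each alternative, from 21 to 23 with siRNA.1 and from 20 to 23 with siRNA.2, and no call changed sign. The number of higher members with siRNA.2 (2) ran from 0 to 2 with each library left out, and that of higher members with siRNA.1 from 3 to 4. Between the siRNAs, lower members (2) ran from 1 to 4 and higher members (3) from 2 to 3 with each library left out, and both limma fits gave 1 higher member. Medians moved by more than the spread between libraries in these cases. With limma on log2(FPKM + 1), that of the 35 genes was -0.36 with each siRNA (-0.3593 and -0.3551), that of the late sterol steps -0.48 with siRNA.1 and that of the fatty acid enzymes -0.0705 with siRNA.2. Without CYP51A1 and EBP, an alternative chosen after seeing the data, the late sterol median with siRNA.2 was -0.54. With each library left out, the median of the 35 genes ran from -0.44 to -0.36 with siRNA.2 and from -0.0295 to 0.0229 between the siRNAs, that of the late sterol steps from -0.48 to -0.40 with siRNA.2, and that of the fatty acid enzymes from -0.14 to -0.0226 with siRNA.1 and from -0.18 to -0.0704 with siRNA.2. The cause of these shifts was not tested. Of 1047 gene values under alternatives other than left-out libraries, 13 lost and 12 gained a call, and of 945 with a library left out, 17 lost and 9 gained one. With the replicate number as a block, 23 members were lower and 3 higher with siRNA.1 and 22 lower and 2 higher with siRNA.2, and the block changed no other call among the 35 genes. Same-numbered libraries did not deviate together (r between -0.133 and 0.0529 over 9 pairs, none over 0.1). No shared effect of a number was therefore seen, but this cannot show that the cultures were not paired. Genes of few counts, such as ACSL5 and LINC00885, are limited by depth.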
